A study of Mus musculus with 4 samples.

Results

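Transcript levels in wild-type tibialis anterior (TA), a fast-twitch muscle at the front of the lower leg, were compared with those in wild-type heart of mice at postnatal day 9. The comparison rested on 2 of the 4 arrays of the study, the array of wild-type TA and the array of wild-type heart, and on every probe set annotated to 1 gene. These were 34945 of 45037 probe sets, they stood for 18193 genes, and 11872 of those genes were measured in at least 1 of the tissues. All mice had the C57BL/6J background. The remaining arrays held TA and heart of mice of the same age that lacked MG56, an alternative name of Hhatl. Each array was hybridised with mixed RNA, that of 3 mice for the knockout pools, while the labels used here do not state how many wild-type mice were mixed. With 1 pool a group there is no replicate error and no test, so every value below is a ratio between pools. The 2 knockout arrays share no array with the wild-type ratio and are given beside it as a second pair of pools of the same tissues.

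Skeletal muscle and heart are both striated muscles and contract by the same machinery, in which myosin motors of thick filaments pull on actin filaments when calcium binds to troponin. Many parts of this machinery are encoded by small gene families whose members are used in different fibre types or chambers. In skeletal fibres a calcium channel of the cell membrane opens the ryanodine receptor of the sarcoplasmic reticulum by direct contact, whereas in heart cells the calcium that enters through the membrane channel opens it. Around birth, skeletal fibres still carry embryonic and neonatal myosins, and the ventricles of mice replace beta-myosin with alpha-myosin.

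On these Affymetrix arrays a transcript is read by a set of short probes, and the deposited value of a probe set is its signal on a linear scale. Signals of different probe sets were not set against each other, since probes differ in brightness. A signal of 101.3, the median over all arrays, served as the floor: a gene was measured if it reached the floor in wild-type TA or heart, and a lower signal was raised to the floor before the ratio was taken. A fold taken from such a raised signal is only a bound, marked by the words "at least". In wild-type TA 49.6% and in wild-type heart 50.2% of the probe sets lay above the floor. The log2 ratio is that of TA over heart, so values above 0 mean a higher signal in TA, and its median over all genes measured was -0.07.

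Of the 11872 genes, 898 (7.56%) were at least 2-fold higher in TA and 926 (7.80%) at least 2-fold higher in heart. A 4-fold difference was found for 301 genes (2.54%) higher in TA and 223 (1.88%) higher in heart. A 10-fold difference was found for 114 genes (0.960%) higher in TA and 68 (0.573%) higher in heart. In TA 248 of the 898 ratios were lower bounds, and in heart 188 of 926. In the knockout pools 1003 of 11833 measured genes (8.48%) were at least 2-fold higher in TA and 961 (8.12%) in heart. The lists of both pairs shared 682 genes higher in TA, which were 75.9% of the wild-type list and 68.0% of the knockout list. They shared 693 genes higher in heart, 74.8% and 72.1% of the lists.

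The tissue labels were set against marker genes. Of 9 skeletal muscle markers, 8 were at least 2-fold higher in TA. The exception by its brightest probe set was Ckm, the muscle creatine kinase, with 36763 in TA and 20635 in heart. Its other measured probe set gave a log2 ratio of 2.53. All 8 heart markers were at least 2-fold higher in heart. Both labels were therefore borne out by these genes. Transcripts of the Y chromosome and the X-inactivation transcript were present in both pools: Xist read 12996 in TA and 16847 in heart, and the Y-linked Eif2s3y read 899 in TA and 816 in heart. As the RNA came from whole tissue, fewer cells of a type and less RNA per cell cannot be told apart in any of these ratios.

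**Figure D1:**
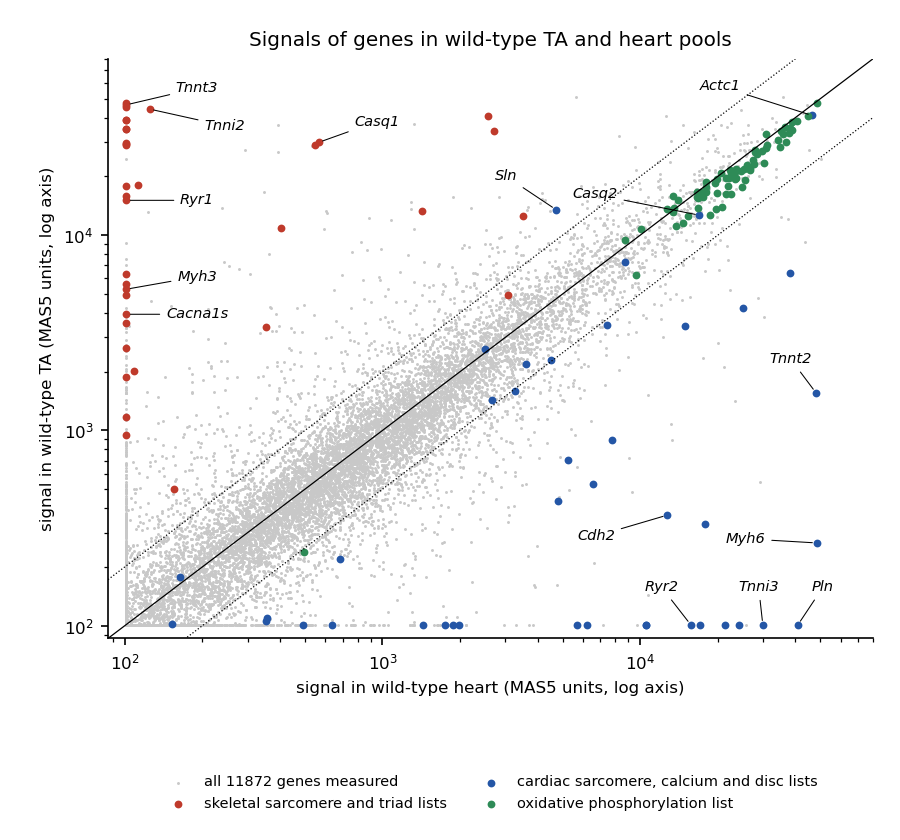
Signal of each of the 11872 genes in wild-type heart (horizontal, MAS5 units, log axis) against wild-type TA (vertical, same units), with signals under the floor of 101.3 drawn at the floor. The solid line marks equal signals and the dotted lines a 2-fold difference; genes of the skeletal sarcomere and triad lists (red) lie at the upper left, those of the cardiac sarcomere, calcium and disc lists (blue) mostly at the lower right, and the 70 genes of oxidative phosphorylation (green) along the diagonal.

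The sequences before the start sites of some of the most tissue-restricted genes are shown first, because these genes set the ends of the comparison. They are the 250 bases before the start of isoform genes with the largest ratios each way that had an entry in the RefSeq table (GRCm38.p6), and of a leading transcription factor gene of each tissue. Capitals mark every match, on either strand, to the E-box spelled CAGCTG, to the E-box spelled CACCTG, to the MEF2 site and to the CArG box, and on the given strand to TATAAA. This last motif can lie within a MEF2 site. From TA come Myh1 (fast myosin heavy chain IIx, chr11:67199852-67200101, plus strand), Mylpf (fast regulatory light chain, chr7:127211358-127211607, plus strand) and Myog (the muscle-forming factor myogenin, chr1:134289754-134290003, plus strand). From heart come Pln (phospholamban, chr10:53337436-53337685, plus strand), Tnni3 (cardiac troponin I, chr7:4522529-4522778, minus strand), Mybpc3 (cardiac myosin binding protein C, chr2:91117894-91118143, plus strand) and Tbx20 (a T-box factor, chr9:24774304-24774553, minus strand).
Myh1: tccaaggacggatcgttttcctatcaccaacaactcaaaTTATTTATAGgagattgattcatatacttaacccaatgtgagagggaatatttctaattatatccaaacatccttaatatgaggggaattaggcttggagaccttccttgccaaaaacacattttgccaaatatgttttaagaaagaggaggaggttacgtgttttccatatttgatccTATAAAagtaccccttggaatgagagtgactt
Mylpf: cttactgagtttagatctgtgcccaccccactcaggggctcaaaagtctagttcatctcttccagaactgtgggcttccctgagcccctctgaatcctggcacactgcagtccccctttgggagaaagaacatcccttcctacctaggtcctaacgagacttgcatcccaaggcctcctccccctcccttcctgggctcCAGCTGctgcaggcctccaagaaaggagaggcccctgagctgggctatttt
Myog: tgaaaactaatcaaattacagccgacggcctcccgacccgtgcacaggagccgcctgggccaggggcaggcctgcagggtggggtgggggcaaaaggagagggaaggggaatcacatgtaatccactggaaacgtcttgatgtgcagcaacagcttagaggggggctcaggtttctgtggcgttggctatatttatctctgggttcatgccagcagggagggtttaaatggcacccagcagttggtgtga
Pln: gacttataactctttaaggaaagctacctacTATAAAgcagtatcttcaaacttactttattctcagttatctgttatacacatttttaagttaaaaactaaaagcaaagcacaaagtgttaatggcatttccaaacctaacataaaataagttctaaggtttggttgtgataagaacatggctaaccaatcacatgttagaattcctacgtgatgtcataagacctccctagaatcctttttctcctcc
Tnni3: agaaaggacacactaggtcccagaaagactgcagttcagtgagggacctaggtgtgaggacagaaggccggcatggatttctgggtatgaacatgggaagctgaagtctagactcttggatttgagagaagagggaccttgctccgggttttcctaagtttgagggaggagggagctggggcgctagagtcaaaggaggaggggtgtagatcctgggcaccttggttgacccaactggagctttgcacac
Mybpc3: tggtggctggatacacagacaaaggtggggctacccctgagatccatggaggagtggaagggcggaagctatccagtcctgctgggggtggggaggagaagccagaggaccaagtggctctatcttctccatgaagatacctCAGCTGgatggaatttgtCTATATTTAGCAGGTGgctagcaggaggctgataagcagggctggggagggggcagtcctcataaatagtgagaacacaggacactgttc
Tbx20: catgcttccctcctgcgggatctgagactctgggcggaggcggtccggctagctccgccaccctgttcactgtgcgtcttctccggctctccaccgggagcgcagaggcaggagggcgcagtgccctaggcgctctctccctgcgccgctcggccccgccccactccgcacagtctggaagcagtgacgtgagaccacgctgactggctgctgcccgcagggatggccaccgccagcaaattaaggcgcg

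Myh1 had a match to the MEF2 site 211 bases and TATAAA 32 bases before its start, and Mylpf a CAGCTG at 51 bases. The heart gene Mybpc3 held the E-box CAGCTG at 108 bases, the E-box CACCTG at 80 bases and a MEF2 match at 90 bases before its start. A MEF2 match stood in 6.42% of the 296 promoters of genes at least 4-fold higher in TA, in 1.72% of the 233 promoters of genes at least 4-fold higher in heart, in 1.85% of promoters of all genes measured and in 2.92% of all promoters of that length in the table. For CAGCTG these shares were 19.3%, 15.9%, 12.3% and 13.0%. For CACCTG they were 19.6%, 21.0%, 15.5% and 17.2%. The CArG box stood in 2.36%, 3.43%, 1.23% and 1.47%, and TATAAA in 9.46%, 6.44%, 4.17% and 7.59%. These are shares of short letter matches and not of bound sites.

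The contractile genes gave the largest ratios of the comparison. Of the 18 measured genes of the fast fibre sarcomere list, 17 were at least 2-fold higher in TA and 0 in heart, with a median log2 ratio of 7.75 (7.48 in the knockout pools). Over all genes measured these shares were 7.56% and 7.80%. The list of cardiac sarcomere genes had 12 of 14 higher in heart, 0 in TA and a median of -5.34. Lower bounds made up 10 of the 18 fast fibre ratios and 7 of the 14 cardiac ones, so the floor can limit both medians. The list of genes shared by slow fibres and ventricle was divided, with 4 of 13 higher in TA and 6 higher in heart.

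Among the myosin heavy chains, the motors of the thick filament, 6 of 8 were higher in TA and 2 in heart. Myh1 (IIx) read 47370.2 in TA and 20.8 in heart, at least 468-fold higher in TA. Myh4 (IIb), the fastest adult form, read 35006 in TA and 13.0 in heart, at least 346-fold higher. Myh2 (IIa) read 29156 in TA and 77.1 in heart, at least 288-fold higher. All adult fast forms were thus under the floor in heart. The developmental forms were present in TA beside them: neonatal Myh8 read 38860.2 in TA and 65.8 in heart, at least 384-fold higher, and embryonic Myh3 read 5286 in TA and 13.9 in heart, at least 52.2-fold higher. Alpha-myosin, Myh6, was the opposite extreme, with 265 in TA and 48296 in heart, 182-fold higher in heart and 134-fold higher in the knockout pools. Myh7b, an ancient slow-type myosin, read 176 in TA and 491 in heart, 2.79-fold higher in heart.

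Myh7, the slow and beta-cardiac myosin, was the myosin whose ratio differed most between the pairs of pools. It read 12190.5 in TA and 886 in heart in the wild-type pools, 13.8-fold higher in TA. In the knockout pools it read 12035 in TA and 7354 in heart, 1.64-fold higher in TA. The TA pools were alike and the heart pools were not, the wild-type heart being the low one, so the size of the ratio depends on which heart pool is used. In the RefSeq annotation Myh6 and Myh7 are neighbours on chromosome 14 with no protein-coding gene between them, and in these wild-type pools they pointed in opposite directions. Each carries a microRNA inside the gene, miR-208a in Myh6 and miR-208b in Myh7, while miR-499 lies in Myh7b. The mature forms were not measured here. Their sequences are shown because miR-208a and miR-208b share their seed (bases 2 to 8, in capitals), while the seed of miR-499 differs from it only in base 8.
mmu-miR-208a-3p: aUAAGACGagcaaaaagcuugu
mmu-miR-208b-3p: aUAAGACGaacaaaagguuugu
mmu-miR-499-5p: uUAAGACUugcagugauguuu

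The light chains of myosin followed the same division. Mylpf, the fast regulatory light chain, read 45389.7 in TA and 93.7 in heart, at least 448-fold higher in TA, and Myl1, the fast essential light chain, 40793 in TA and 2568 in heart, 15.9-fold higher. Myl7, the atrial regulatory light chain, read 6.6 in TA and 17025 in heart, at least 168-fold higher in heart. The light chains shared with slow fibres were present in both tissues and moderately higher in heart: Myl2 read 12327 in TA and 35303 in heart (2.86-fold) and Myl3 9256 in TA and 43404 in heart (4.69-fold). Myl4, the atrial and embryonic essential light chain, read 3417 in TA and 14949.5 in heart, 4.37-fold higher in heart but 1.71-fold in the knockout pools, where TA read 6406. The kinases that phosphorylate the regulatory light chain were divided too. Mylk2, the skeletal kinase, was at least 9.35-fold higher in TA (947 in TA and 9.2 in heart), and Mylk3, the cardiac kinase, at least 61.4-fold higher in heart (68.5 in TA and 6224 in heart).

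Troponin, the calcium switch of the thin filament, was divided in each of its subunits. The fast forms Tnni2, Tnnt3 and Tnnc2 were 354-fold, at least 459-fold and at least 294-fold higher in TA, with signals of 44219 in TA and 125 in heart for Tnni2, 46476 in TA and 19.1 in heart for Tnnt3 and 29739.6 in TA and 11.4 in heart for Tnnc2. Cardiac Tnni3 read 95.4 in TA and 29889.5 in heart, at least 295-fold higher in heart, and cardiac Tnnt2 read 1563 in TA and 47981 in heart, 30.7-fold higher. Tnnt2 stayed well above the floor in TA. The slow forms did not move as a unit. Tnnt1, slow troponin T, read 7316 in TA and 1454 in heart, 5.03-fold higher in TA, whereas Tnni1, slow troponin I, read 3714 in TA and 12059.8 in heart, 3.25-fold higher in heart, and Tnnc1, the slow and cardiac troponin C, 4745 in TA and 28755 in heart, 6.06-fold higher in heart. The knockout pools gave the same directions, with 6.70-fold, 4.09-fold and 5.66-fold. Tnni3 and Tnnt1 are neighbours on chromosome 7 with no protein-coding gene between them, and they differed in direction.

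Other filament proteins showed families with a switch and families without. Skeletal actin Acta1 read 34068 in TA and 2714 in heart, 12.6-fold higher in TA, while cardiac actin Actc1 read 40999 in TA and 46456 in heart and lay within 2-fold. Actn3, the fast-fibre alpha-actinin of the Z-disc, read 35092 in TA and 7.4 in heart, at least 346-fold higher in TA, and Actn2, the general muscle form, read 19092 in TA and 19039.8 in heart. In both families, then, the tissues shared the form named for heart or for all muscle and differed in the skeletal form. Nebulin, the ruler of the skeletal thin filament, read 28906 in TA and 53.0 in heart, at least 285-fold higher in TA, and its small cardiac relative Nebl 100.1 in TA and 10528 in heart, at least 104-fold higher in heart. The myosin binding proteins C, which brace the thick filament, gave Mybpc1 (slow) 28561 in TA and 8.6 in heart, at least 282-fold higher in TA, Mybpc2 (fast) 28875 in TA and 548 in heart, 52.7-fold higher, and Mybpc3 (cardiac) 28.2 in TA and 24239.8 in heart, at least 239-fold higher in heart. Titin, Ttn, the giant spring of the sarcomere, lay within 2-fold with 50889.6 in TA and 35905 in heart.

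**Figure D2:**
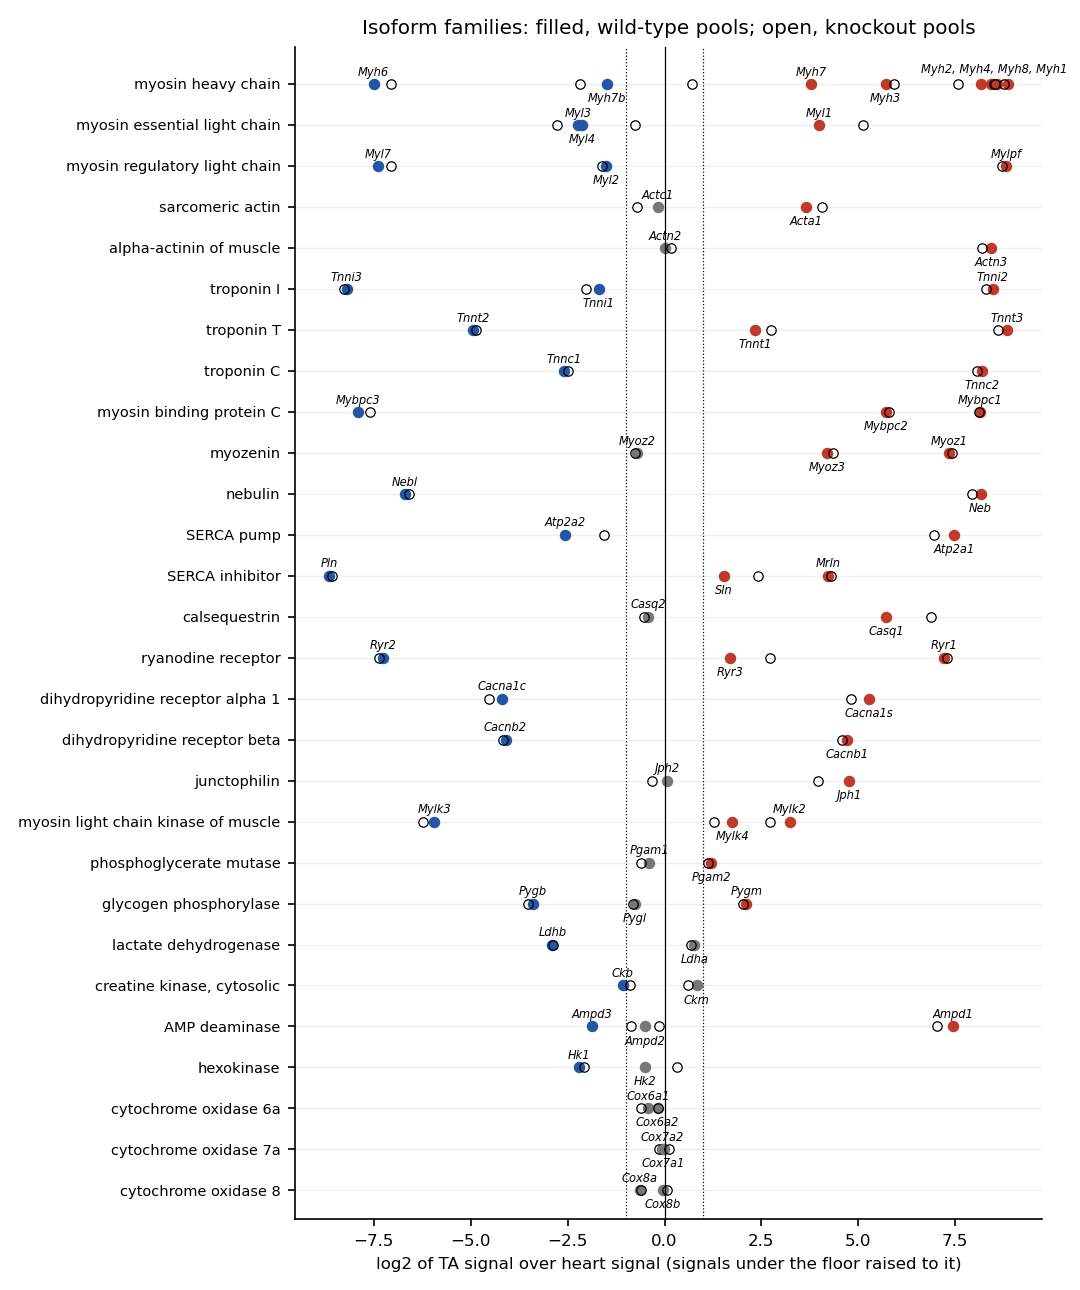
Log2 ratio of TA over heart for measured members of 28 isoform families, signals below the floor being set to the floor. Filled circles are the wild-type pools (red at least 2-fold higher in TA, blue at least 2-fold higher in heart, grey within 2-fold) and open circles the knockout pools; dotted lines mark 2-fold, and Myh7 is the myosin whose open circle lies far from its filled one.

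Over 38 isoform families, 33 had at least 2 measured members. In 16 of them 1 member was at least 2-fold higher in TA and another at least 2-fold higher in heart. In 5 families every measured member lay within 2-fold, namely the striated muscle leiomodins, the glucose transporters and the cytochrome oxidase subunits 6a, 7a and 8. Members not described elsewhere were Mylk4, a kinase of myosin light chain (3649 in TA and 1088 in heart, 3.35-fold higher in TA), Myoz3, a calsarcin of fast fibres (1868 in TA and 1.0 in heart, at least 18.4-fold higher in TA), the homeobox factor Six4 (738 in TA and 140.0 in heart, 5.27-fold higher in TA) and the liver carnitine palmitoyltransferase Cpt1a (804 in TA and 1696 in heart, 2.11-fold higher in heart). Pgam1, Pygl, Ampd2, Hk2 and Six5 lay within 2-fold, and Six2 was under the floor in heart (118 in TA and 57.4 in heart). These families were chosen for known tissue forms, so the counts describe them and not gene families at large.

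Proteins of the Z-disc, where thin filaments of neighbouring sarcomeres meet, were more often higher in TA: 9 of 19 measured genes against 2 in heart. Myot, myotilin, read 27177 in TA and 294 in heart, 92.6-fold higher in TA, and Pdlim3, a Z-disc adaptor, 15703 in TA and 1878 in heart, 8.36-fold higher. Myoz1, the fast-fibre calsarcin, read 18146 in TA and 112 in heart and was 161-fold higher, while Myoz2, the slow and cardiac calsarcin, read 11524 in TA and 18932 in heart and lay within 2-fold. The genes higher in heart were Fhl2, a LIM protein of heart, with 547 in TA and 29162 in heart (53.4-fold), and Hspb7, the cardiovascular small heat shock protein, with 7442 in TA and 21846 in heart (2.94-fold). Fhl1, its skeletal relative, was 3.87-fold higher in TA. Tropomyosin and tropomodulin were added after their values were seen: Tpm2 read 37263 in TA and 1319 in heart, 28.2-fold higher in TA, Tpm1 34808 in TA and 33191 in heart, and Tmod4, which caps the pointed end of thin filaments in skeletal muscle, 13733 in TA and 238 in heart, 57.8-fold higher in TA. Synm, an intermediate filament protein, was 32.8-fold higher in TA (3409 in TA and 104 in heart). Of 13 genes of the dystrophin complex and sarcolemma, 4 were at least 2-fold higher in TA and 0 in heart. Capn3, the muscle calpain, read 3363 in TA and 82.7 in heart (at least 33.2-fold), Sgcb and Sgca, the beta and alpha sarcoglycans, were 2.47-fold and 2.33-fold higher, and dystrophin itself, Dmd, lay within 2-fold at 5267 in TA and 3059 in heart.

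The intercalated disc, which joins heart cells end to end and has no counterpart between skeletal fibres, was the opposite: 11 of 12 measured genes were at least 2-fold higher in heart and 0 in TA (median -2.72). The desmosome genes led. Desmoplakin, Dsp, read 36.5 in TA and 21349 in heart (at least 211-fold higher in heart), plakophilin Pkp2 94.8 in TA and 10502 in heart (at least 104-fold) and desmoglein Dsg2 29.0 in TA and 5680.5 in heart (at least 56.1-fold). N-cadherin, Cdh2, read 368 in TA and 12701 in heart, 34.5-fold higher in heart. Connexin 43, Gja1, the main gap junction protein of the ventricle, read 4253 in TA and 25118 in heart by its brightest probe set, 5.91-fold higher. Over the 6 measured probe sets of Gja1 the log2 ratio ran from -3.19 to 0.78, so they did not all point to heart. Vinculin, Vcl, which also sits in the costameres of skeletal fibres, was the member within 2-fold, at 7322 in TA and 8712 in heart. Perp, another desmosome protein and outside the list, had the second largest ratio in heart among genes above the floor in both tissues, with 144 in TA and 10744 in heart (74.7-fold).

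Listed genes of excitation and calcium release mostly had the higher signal in the tissue they are known from. All 15 measured genes of the skeletal triad list were at least 2-fold higher in TA, with a median log2 ratio of 5.28. Of these ratios 10 were lower bounds, so the floor limits the median. Of 16 cardiac calcium genes, 9 were at least 2-fold higher in heart and 1 in TA. Ryr1, the skeletal release channel, read 15077 in TA and 15.0 in heart, at least 149-fold higher in TA, and Ryr2, the cardiac release channel, 58.3 in TA and 15688 in heart, at least 155-fold higher in heart. Each was under the floor in the other tissue. Ryr3, the third release channel and a form of developing muscle, read 503 in TA and 155 in heart, 3.24-fold higher in TA. The membrane calcium channel followed: Cacna1s, its skeletal pore, read 3934 in TA and 9.0 in heart (at least 38.8-fold higher in TA), and Cacna1c, the cardiac pore, 81.0 in TA and 1872 in heart (at least 18.5-fold higher in heart). The accessory subunits gave at least 26.2-fold for Cacnb1 and at least 62.7-fold for Cacng1 in TA, and at least 17.2-fold for Cacnb2 in heart. Stac3, an adaptor that skeletal excitation-contraction coupling needs, read 3562 in TA and 37.3 in heart, at least 35.2-fold higher in TA.

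The pumps and their small inhibitors differed in a graded way. Atp2a1, the fast calcium pump SERCA1, read 17944 in TA and 47.9 in heart, at least 177-fold higher in TA, and Atp2a2, the slow and cardiac pump SERCA2, 6408 in TA and 38159.8 in heart, 5.95-fold higher in heart. Phospholamban, Pln, which restrains SERCA2, read 94.3 in TA and 40955 in heart and was at least 404-fold higher in heart, the largest bound in that direction. Myoregulin, Mrln, the inhibitor of skeletal fibres, read 2010.5 in TA and 108 in heart, 18.5-fold higher in TA. Sarcolipin, Sln, known in mice as an atrial inhibitor, was the exception among the cardiac calcium genes, with 13519.6 in TA and 4710.2 in heart, 2.87-fold higher in TA and 5.33-fold in the knockout pools. Parvalbumin, Pvalb, the soluble calcium buffer of fast fibres, read 38938 in TA and 61.8 in heart, at least 384-fold higher in TA. The calcium store protein Casq1 read 29866 in TA and 566 in heart, 52.8-fold higher in TA, while Casq2, the cardiac form, read 12651 in TA and 16964 in heart and lay within 2-fold. Junctophilins, which tether the reticulum to the membrane, showed the same pattern: Jph1 was 27.2-fold higher in TA (10939 in TA and 402 in heart) and Jph2 lay within 2-fold (2625 in TA and 2504 in heart). The sodium-calcium exchanger Slc8a1, which returns calcium across the heart cell membrane, read 51.2 in TA and 489.8 in heart, at least 4.84-fold higher in heart.

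Of 12 reticulum genes used in both tissues, 7 were at least 2-fold higher in TA and 0 in heart. Hhatl, the gene deleted in the knockout pools and a membrane protein of the reticulum, read 5491 in TA and 2109.5 in heart, 2.60-fold higher in TA. The potassium-permeable TRIC channels were higher in TA for both Tmem38a (7106 in TA and 1663 in heart, 4.27-fold) and Tmem38b (4566 in TA and 899.6 in heart, 5.08-fold). Stim1, the sensor that opens store-operated calcium entry, was 9.84-fold higher in TA (2134 in TA and 217 in heart), and its channel Orai1 2.84-fold (1169 in TA and 412 in heart). Srl, sarcalumenin, and Hrc, the histidine-rich calcium binding protein, lay within 2-fold at 28058 in TA and 19932 in heart and 12214 in TA and 6664 in heart.

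Triadin and the Asph gene, whose products include junctin, both anchor calsequestrin to the ryanodine receptor, and their probe sets disagreed. Of the 6 probe sets of Trdn, 3 were higher in TA, at 53.8-fold, 15.3-fold and 5.61-fold, and 3 were higher in heart, at 3.58-fold, 3.10-fold and 2.68-fold. The brightest of the first kind read 28726 in TA and 534 in heart, and the brightest of the second 3815 in TA and 11832 in heart. For Asph, 2 probe sets were higher in TA (4.18-fold and 3.31-fold) and 3 in heart (2.52-fold, 2.15-fold and 1.69-fold). Each of these 11 probe sets kept its direction in the knockout pools. The sources used here do not say which transcript form each probe set reads, and elsewhere both genes are counted by their brightest probe set. Opposite 2-fold ratios within a gene were rare: they occurred in 6 of 5380 genes with at least 2 measured probe sets, the others being Kcnq1ot1, Mbp, Ppp3cb and Slc25a4.

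**Figure D3:**
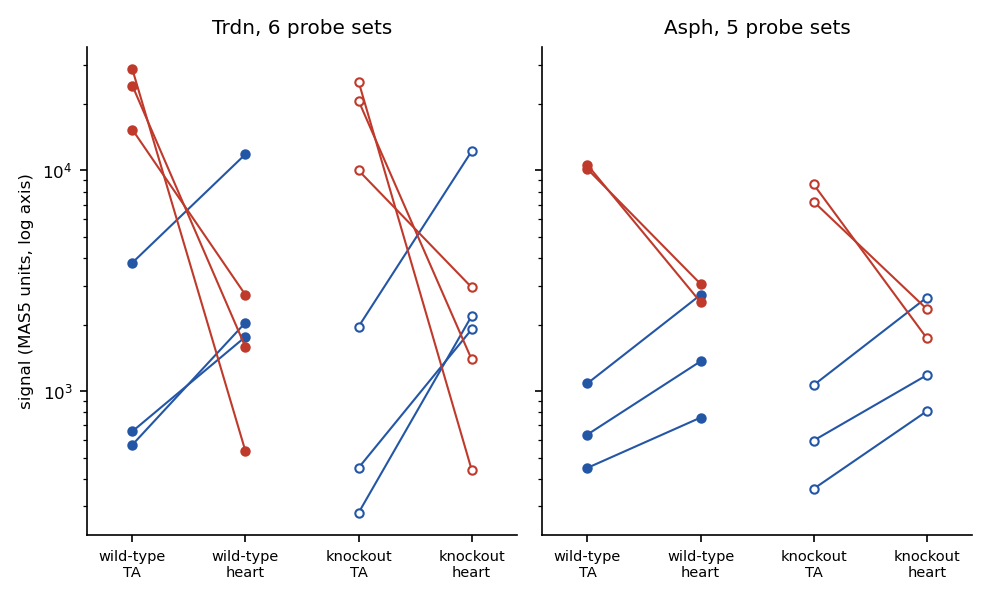
Signals (MAS5 units, log axis) of the 6 probe sets of Trdn and the 5 of Asph in the wild-type pools (filled) and knockout pools (open), with lines joining TA and heart of a probe set. Red probe sets are higher in wild-type TA and blue ones in wild-type heart, and each slopes the same way in both pairs of pools.

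The lists of ion channels of the cell membrane were divided too. They were chosen for known use in skeletal muscle or heart, so their counts describe the listed genes and not ion channels at large. The same holds for the skeletal and cardiac lists of sarcomere, calcium and transcription factor genes. Of 10 measured skeletal channel genes, 7 were at least 2-fold higher in TA and 0 in heart; of 17 cardiac channel genes, 11 were higher in heart and 1 in TA. Kcne1, the partner of the slow delayed rectifier, read 5.1 in TA and 9749 in heart, at least 96.2-fold higher in heart, and Kcnq1, the pore of the same current, 69.0 in TA and 922 in heart, at least 9.11-fold higher. Kcnip2, which is needed for the transient outward current, read 9.0 in TA and 1329 in heart (at least 13.1-fold), and Kcnj5, a subunit of the acetylcholine-gated potassium channel, 9.8 in TA and 1317 in heart (at least 13.0-fold). Each of these lay under the floor in TA. In TA the potassium channels Kcnc4 and Kcna7 were higher, with 1018 in TA and 92.6 in heart (at least 10.05-fold) and 1568 in TA and 183 in heart (8.57-fold). Kcnc4 rested on 1 probe set that may also read other sequences, and its log2 ratio was 0.26 by its other probe set. Clcn1, the chloride channel that steadies the adult fibre membrane, read 217 in TA and 7.3 in heart (at least 2.15-fold higher in TA). Scn4b, a sodium channel beta subunit placed in the cardiac list, read 2406 in TA and 23.4 in heart and was at least 23.8-fold higher in TA. The subunits of the ATP-sensitive channel lay within 2-fold, Kcnj11 at 743 in TA and 1106 in heart and Abcc9 at 9429.6 in TA and 12204 in heart. Among sodium pump subunits, added after their values were seen, Atp1b4 read 24615 in TA and 2.8 in heart, at least 243-fold higher in TA, and Atp1b2 2813 in TA and 246 in heart, 11.5-fold higher.

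Genes of the neuromuscular junction, where motor nerves meet fibres, were at least 2-fold higher in TA for 8 of 14 and in heart for 0. The acetylcholine receptor subunits Chrna1 and Chrnb1 were at least 31.6-fold and 13.9-fold higher in TA, at 3202 in TA and 31.7 in heart and 2935 in TA and 211 in heart. The adult subunit Chrne read 235 in TA and 12.9 in heart (at least 2.32-fold), and the fetal subunit Chrng read 137 in TA and 12.1 in heart. Musk, the receptor kinase that organises the junction, read 259 in TA and 38.5 in heart (at least 2.56-fold), its co-receptor Lrp4 468 in TA and 144 in heart (3.24-fold) and the scaffold Rapsn 443 in TA and 172 in heart (2.57-fold). Agrin, Agrn, the nerve-derived signal for Musk that other cells also make, leaned the other way at 859 in TA and 1649.5 in heart and lay within 2-fold. Of 5 measured autonomic and angiotensin receptor genes, the angiotensin type 2 receptor Agtr2 was at least 15.4-fold higher in TA (1559 in TA and 52.4 in heart) and the adrenergic receptor Adra1b at least 2.11-fold higher in heart (27.3 in TA and 213 in heart).

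**Figure D4:**
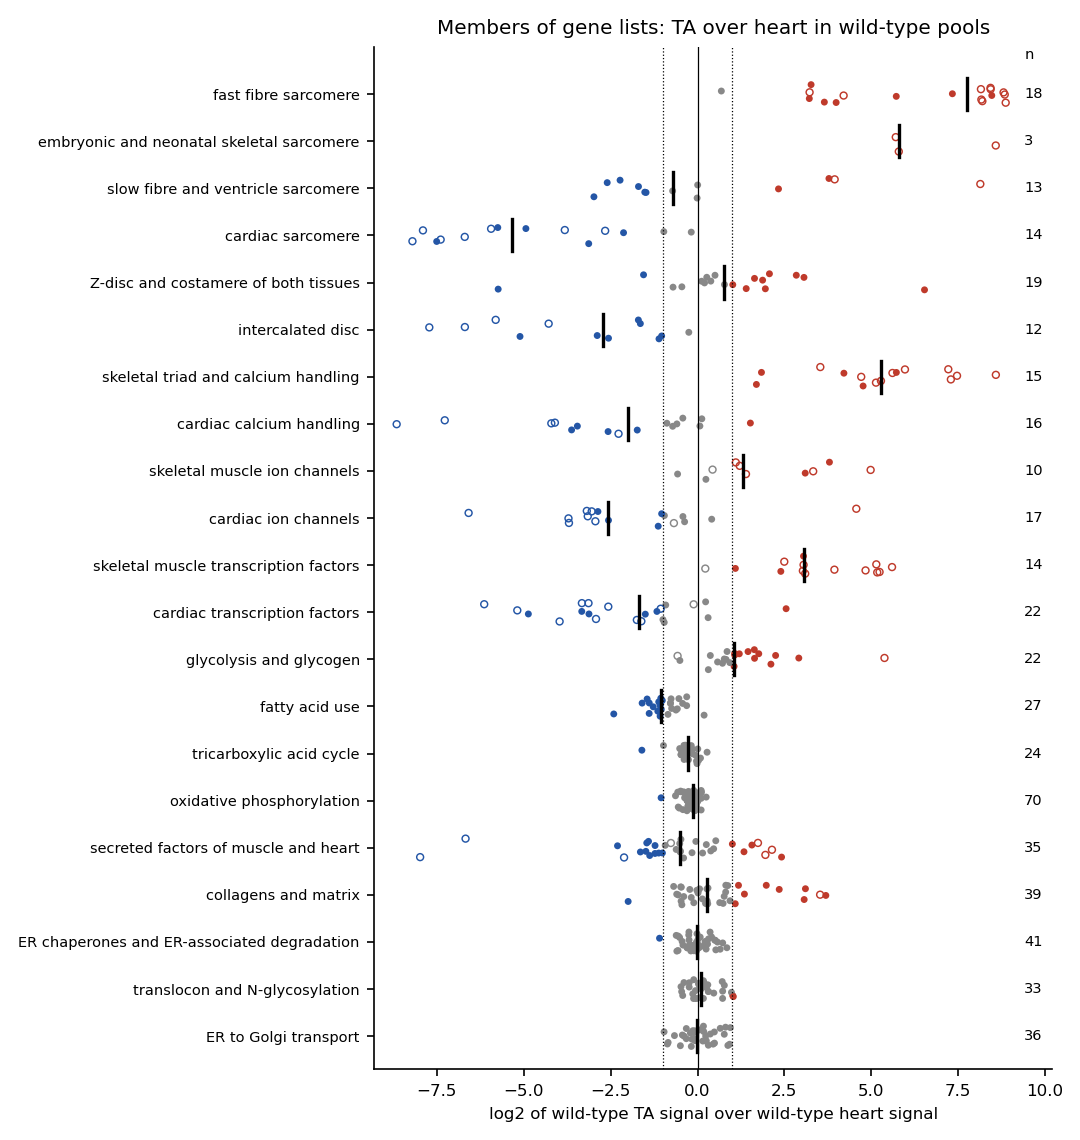
Log2 ratio of wild-type TA over wild-type heart for the measured members of 21 gene lists, 1 circle a gene, with the number of members at the right and a black bar at the median. Open circles are lower bounds, dotted lines mark 2-fold, and vertical position within a row has no meaning; the contractile, calcium, channel and factor lists spread far from 0, while oxidative phosphorylation, the tricarboxylic acid cycle and the ER lists lie close to it.

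Among transcription factors known to set each muscle fate, 11 of 14 ratios in the skeletal list and 11 of 22 in the cardiac list were lower bounds. The share of lower bounds over all genes measured is not given here, so these counts show only how often the floor limits the ratio. Of 14 measured skeletal muscle factors, 13 were at least 2-fold higher in TA and 0 in heart (median 3.08). The myogenic factors that can turn other cells into muscle were all under the floor in heart: Myf6 read 4907 in TA and 24.2 in heart (at least 48.4-fold), Myog 3825 in TA and 58.4 in heart (at least 37.8-fold), Myod1 868 in TA and 57.7 in heart (at least 8.56-fold) and Myf5 840.1 in TA and 1.0 in heart (at least 8.29-fold). Myf5 and Myf6 are neighbours on chromosome 10. Tbx15, a T-box factor of glycolytic fibres, read 3652 in TA and 11.2 in heart, at least 36.1-fold higher in TA, and Vgll2, a muscle cofactor of TEAD factors, 3586 in TA and 62.6 in heart, at least 35.4-fold higher. Eya4 and Eya1, transcriptional cofactors of homeobox factors, were at least 28.6-fold and 8.28-fold higher, at 2893 in TA and 61.2 in heart and 869 in TA and 105 in heart. Pax7, the factor of satellite cells, the muscle stem cells, read 572 in TA and 5.0 in heart, at least 5.64-fold higher. Lbx1, known from migrating limb muscle precursors, was still above the floor in TA at 828 in TA and 9.0 in heart.

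Of 22 cardiac factors, 15 were at least 2-fold higher in heart and 1 in TA (median -1.68). Tbx20, needed for chamber growth, read 13.9 in TA and 7142 in heart, at least 70.5-fold higher in heart. Irx3, a homeobox factor of the conduction system, read 83.4 in TA and 3691 in heart (at least 36.4-fold), and Gata6 162 in TA and 4739.9 in heart (29.2-fold). Hand2 read 23.7 in TA and 1587 in heart (at least 15.7-fold), Myocd, the coactivator myocardin, 5.3 in TA and 1018 in heart (at least 10.04-fold), and Nkx2-5, the early heart factor, 26.6 in TA and 892 in heart (at least 8.80-fold). All of these but Gata6 were under the floor in TA. Hopx, a homeodomain-only protein, was above the floor in both, at 2104 in TA and 21191 in heart (10.1-fold higher in heart). Gata4 read 53.9 in TA and 339.8 in heart (at least 3.35-fold) and Tbx5 9.7 in TA and 211 in heart (at least 2.08-fold), so these widely used heart markers gave smaller bounds. The factor of the cardiac list that was higher in TA was Shox2, which acts in the sinus node and in the limb, with 646 in TA and 110.3 in heart (5.85-fold). Among 12 factors used in both tissues, Mef2c read 10790.5 in TA and 1319.5 in heart, 8.18-fold higher in TA, whereas Mef2a (5179.6 in TA and 8673 in heart) and Mef2d (3053 in TA and 2852 in heart) lay within 2-fold. Hdac9, a deacetylase that represses MEF2 factors, was 2.29-fold higher in heart (364 in TA and 831 in heart).

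Hox genes, which mark position along the body and the limb, separated the tissues in the same way. With the hindlimb genes, 10 of 19 members measured were higher by 2-fold or more in TA and 0 in heart. Hoxa9 read 2344 in TA and 7.3 in heart, at least 23.1-fold higher in TA, and Hoxa10 1602 in TA and 1.6 in heart, at least 15.8-fold higher. Hoxc10 and Hoxc9 were at least 5.36-fold and at least 5.04-fold higher, with 543 in TA and 21.0 in heart and 511 in TA and 14.2 in heart, and Hoxc8 read 425 in TA and 1.7 in heart. Hoxd8 read 692 in TA and 107 in heart, 6.45-fold higher. The largest ratios thus belonged to groups 8 to 10 of the clusters. In groups 2 to 5 Hoxc4 was at least 2.87-fold higher in TA (290.3 in TA and 9.3 in heart). No other measured gene of these groups reached 2-fold by its brightest probe set. Hoxa4 (139 in TA and 11.1 in heart), Hoxa3 (132 in TA and 83.7 in heart) and Hoxb4 (130.1 in TA and 79.6 in heart) were under the floor in heart, so their ratios are bounded only from below. Hoxa5 read 703 in TA and 412 in heart by its brightest probe set, a log2 ratio of 0.77, but its other measured probe set gave 1.99. Hoxb3 read 196 in TA and 123 in heart, and Hoxb2 was the measured member with the higher signal in heart, at 102 in TA and 188 in heart. Hoxa11 was above the floor in TA at 214 in TA and 32.8 in heart, and the other genes of groups 11 to 13 on the array lay under the floor in both tissues. Tbx4, the hindlimb T-box factor, read 325 in TA and 2.7 in heart, at least 3.20-fold higher in TA.

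**Figure D5:**
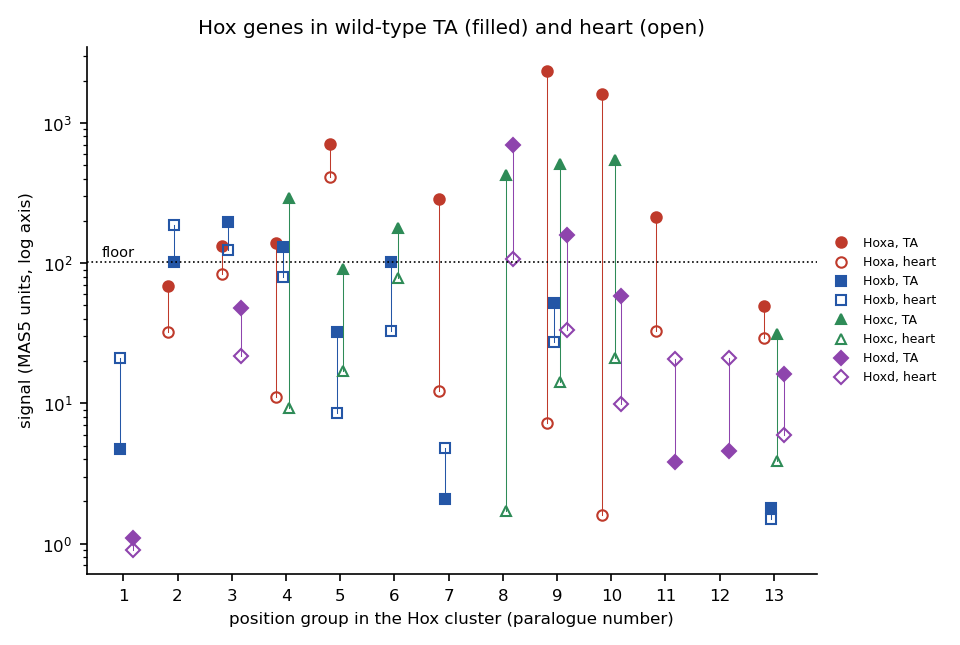
Signals (MAS5 units, log axis) of Hox genes in wild-type TA (filled) and wild-type heart (open) by paralogue group, with a line joining the tissues of a gene and the floor dotted. Heart signals under the floor have no order, and with the floor applied the largest ratios are those of Hoxa9 and Hoxa10; most genes of cluster b stay near or under the floor.

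Metabolic genes differed by smaller steps and by pathway. Of the 22 measured genes in the list of glycolysis and glycogen use, 12 were at least 2-fold higher in TA and 0 in heart (median 1.06). The list left out some forms of these enzymes. Pygb, Hk1 and Ldhb, described below, lay outside it and were at least 2-fold higher in heart. Phkg1, the catalytic subunit of muscle phosphorylase kinase, read 4219.6 in TA and 79.7 in heart, at least 41.7-fold higher in TA. Pygm, muscle glycogen phosphorylase, read 8920.4 in TA and 2063 in heart (4.32-fold higher in TA), while Pygb, the brain form, which was not in the list, read 457 in TA and 4843 in heart and was 10.6-fold higher in heart. Fbp2, the muscle fructose bisphosphatase, was 4.75-fold higher in TA (4867 in TA and 1025 in heart) and Gpd1, of the glycerol phosphate shuttle, 7.54-fold (3335 in TA and 442 in heart). Pgam2, the muscle phosphoglycerate mutase, was 2.30-fold higher (30225 in TA and 13136 in heart). Tpi1, triose phosphate isomerase, and Pkm, the muscle pyruvate kinase, were 2.07-fold and 2.10-fold higher in TA (33594 in TA and 16201 in heart and 6511 in TA and 3105 in heart). Other glycolytic enzymes lay within 2-fold, among them Aldoa at 35603 in TA and 21634 in heart, Eno3 at 43490.5 in TA and 24632 in heart and Ldha at 31182 in TA and 18288 in heart.

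Fatty acid use pointed to heart: 15 of 27 measured genes were at least 2-fold higher in heart and 0 in TA, 26 of the 27 had a log2 ratio below 0, and the median was -1.04. Over all genes measured 7.80% were at least 2-fold higher in heart and the median was -0.07, but the share below 0 is not given here. Cd36, the fatty acid transporter of the membrane, read 9018 in TA and 19551 in heart (2.17-fold), and Cpt2, of mitochondrial fatty acid import, 1892 in TA and 4957 in heart (2.62-fold). By its other measured probe set Cpt2 had a log2 ratio of 0.28. Hadha and Acaa2, of beta-oxidation, were 2.42-fold and 2.73-fold higher, at 2881 in TA and 6972 in heart and 6535 in TA and 17866 in heart. Plin5, which coats lipid droplets beside mitochondria, was 3.02-fold higher (1148 in TA and 3467 in heart). Acot2, a mitochondrial thioesterase, had the largest ratio in the list with 1013 in TA and 5389 in heart (5.32-fold), but in the knockout pools it was 1.76-fold. Ketone and lactate use had 4 of 8 higher in heart. Ldhb, the heart lactate dehydrogenase, read 2349 in TA and 17492 in heart (7.45-fold), Oxct1, the first enzyme of ketone body use, 4996 in TA and 13781 in heart (2.76-fold), and Slc16a1, a lactate carrier, 5051 in TA and 12487 in heart (2.47-fold).

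By the brightest probe set of each gene, the mitochondrial core differed little. Of 70 genes of oxidative phosphorylation, 0 were at least 2-fold higher in TA and 1 in heart, and that gene was Cox7c, at 239 in TA and 495 in heart (2.07-fold). The log2 ratios ran from -1.05 to 0.25, 60 of 70 were below 0, and the median was -0.14, against -0.07 over all genes measured. The share below 0 over all genes measured is not given here. Other probe sets of some genes of oxidative phosphorylation gave larger ratios, such as -1.48 for Ndufs8 and -1.23 for Cox6a1 towards heart and 0.77 for Ndufs4 towards TA. The oxidase subunits with separate heart and liver forms did not divide the tissues: Cox6a2 read 24159 in TA and 27394 in heart and Cox7a1 17731 in TA and 18033 in heart. In the tricarboxylic acid cycle 1 of 24 genes was at least 2-fold higher in heart, Idh2, the mitochondrial isocitrate dehydrogenase, at 6634 in TA and 20132 in heart (3.03-fold). Regulators of energy metabolism leaned the same way, with 3 of 14 at least 2-fold higher in heart: Ppargc1a (1299 in TA and 3770.3 in heart, 2.90-fold) and Ppargc1b (1944 in TA and 3911 in heart, 2.01-fold), both coactivators of mitochondrial genes, and Ppara (289.5 in TA and 600.1 in heart, 2.07-fold), a fatty acid receptor. Ppard was the regulator higher in TA (236 in TA and 106 in heart, 2.22-fold).

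Genes of phosphate shuttles pointed in different directions within pathways. Ampd1, the AMP deaminase of fast fibres, read 17716 in TA and 5.1 in heart, at least 175-fold higher in TA, and Ampd3 484 in TA and 1759.7 in heart, 3.64-fold higher in heart. The enzymes that make creatine, Gatm and Gamt, were 20.6-fold and 19.9-fold higher in TA, at 6334 in TA and 308 in heart and 4193 in TA and 211 in heart, while the creatine importer Slc6a8 was 2.01-fold higher in heart at 1303 in TA and 2619.5 in heart. Ckmt2, the mitochondrial creatine kinase of muscle, lay within 2-fold at 19106 in TA and 23648 in heart, and Ckb, the brain form, was 2.12-fold higher in heart (1564 in TA and 3314 in heart). Subunits of the AMP-activated kinase, an energy sensor, were added after their values were seen. Its gamma subunit Prkag3 read 3224 in TA and 184 in heart (17.5-fold higher in TA) and Prkag2 317 in TA and 1459.5 in heart (4.60-fold higher in heart). By the brightest probe sets its beta subunits gave 3.47-fold in TA for Prkab2 (2799.8 in TA and 806 in heart) and 2.31-fold in heart for Prkab1 (412 in TA and 951 in heart). Other probe sets gave log2 ratios down to 0.50 for Prkab2 and -0.20 for Prkab1. The catalytic subunits Prkaa1 and Prkaa2 lay within 2-fold. Car3, the carbonic anhydrase of skeletal muscle, read 36755 in TA and 394 in heart, 93.2-fold higher in TA, and the membrane-bound forms Car4 and Car14 were 5.90-fold and 4.82-fold higher in heart, at 183 in TA and 1082 in heart and 551 in TA and 2657 in heart. Myoglobin, Mb, read 12037 in TA and 37348 in heart, 3.10-fold higher in heart, and the insulin-sensitive glucose transporter Slc2a4 4540.5 in TA and 2529.7 in heart, within 2-fold. Hk1, the hexokinase of most tissues and also outside the glycolysis list, was 4.63-fold higher in heart (572 in TA and 2647 in heart).

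Among secreted factors, 13 of 35 measured genes were at least 2-fold higher in heart and 7 in TA. The natriuretic peptides, hormones released by heart cells under stretch, led: Nppa read 44.6 in TA and 25638 in heart (at least 253-fold) and Nppb 50.2 in TA and 10361 in heart (at least 102-fold). The neighbouring genes were both under the floor in TA. Corin, the protease that activates the Nppa product, was added after its value was seen and read 44.7 in TA and 3836 in heart (at least 37.9-fold higher in heart). Il15, a cytokine made by muscle, read 182 in TA and 899.9 in heart (4.93-fold) and Fgf16, a growth factor of heart, 72.5 in TA and 439 in heart (at least 4.33-fold). In TA, Fst, follistatin, which binds myostatin and activin, read 608 in TA and 114 in heart (5.35-fold), and Fgf6, a growth factor of muscle, 392 in TA and 47.9 in heart (at least 3.87-fold). Igf2, a growth factor of muscle, was 2.96-fold higher in TA (28155 in TA and 9518 in heart), and its relative Igf1 lay at the 2-fold line (7397 in TA and 3692 in heart). Ptgds, a prostaglandin synthase that is also secreted, read 209 in TA and 6605 in heart and was 31.7-fold higher in heart.

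Of 39 collagen and matrix genes, 9 were at least 2-fold higher in TA and 1 in heart. Col11a1 and Col12a1, collagens of cartilage and tendon, were 12.9-fold and 8.39-fold higher in TA, at 1580.3 in TA and 122 in heart and 3236 in TA and 386 in heart. Col22a1, known from the junction of muscle and tendon, read 1169 in TA and 55.8 in heart (at least 11.5-fold), and Fmod, fibromodulin of tendon, 8519.9 in TA and 989.7 in heart (8.61-fold). Col1a1 read 16439.7 in TA and 4172 in heart (3.94-fold). The gene higher in heart was Eln, the elastin of large vessels, with 1464 in TA and 5844 in heart (3.99-fold). Of the markers of tendon and cartilage, a list that also holds Fmod, 6 of 9 measured were at least 2-fold higher in TA. Tnmd, tenomodulin, read 13146 in TA and 123 in heart (107-fold) and Thbs4 4262 in TA and 367 in heart (11.6-fold). The signals of that marker list summed to 27771 in TA and 2018 in heart, sums in which the brightest probe sets weigh most. The part of tendon and cartilage cells in the matrix ratios was not tested. Kera, keratocan, added after its value was seen, was at least 53.2-fold higher in TA (5392 in TA and 41.3 in heart).

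Genes of the secretory pathway and the endoplasmic reticulum (ER) were nearly the same in both wild-type tissues. Of 41 chaperone and ER-associated degradation genes, 0 were at least 2-fold higher in TA and 1 in heart, and the median log2 ratio was -0.02. The exception was Ero1a, an oxidase that refills disulfide isomerases, at 426 in TA and 909 in heart (2.13-fold). The major chaperone Hspa5 read 8957 in TA and 12185 in heart, calnexin Canx 6792 in TA and 10022 in heart, and the disulfide isomerase P4hb 9872 in TA and 7467 in heart. In the knockout pools the same list had 21 genes at least 2-fold higher in TA and a median of 1.08, so for this list the pairs of pools differ. Hspa5 was 2.64-fold higher in knockout TA than in knockout heart, in which it read 34481 in TA and 13074 in heart. Among 17 genes of the unfolded protein response, Xbp1 (3378 in TA and 6953 in heart, 2.06-fold by its brightest probe set, though the median log2 ratio over its probe sets was -0.06) and Creb3l2 (920.4 in TA and 1922 in heart, 2.09-fold), both transcription factors, were at least 2-fold higher in heart and 0 in TA. Of 33 translocon and N-glycosylation genes, 2 were just past 2-fold in TA: Srpr, the receptor of the signal recognition particle (2047 in TA and 1003 in heart, 2.04-fold), and Sec61a2, a pore subunit of the translocon (1757 in TA and 870.1 in heart, 2.02-fold). None of the 36 ER-to-Golgi genes passed 2-fold in either direction, with ratios from -0.96 to 0.95 on the log2 scale.

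Growth genes of fetal life were higher in TA. Of 15 imprinted genes, which are expressed from the copy of 1 parent, 8 were at least 2-fold higher in TA and 0 in heart (median 1.56). Rian, Mirg and Meg3, noncoding transcripts of the Dlk1 to Dio3 region, were 47.7-fold, 36.5-fold and 9.04-fold higher, at 16606 in TA and 348 in heart, 4609 in TA and 126 in heart and 51018 in TA and 5641 in heart. Dlk1, a membrane protein of the same region, read 4345 in TA and 151 in heart (28.7-fold). Cdkn1c, an inhibitor of the cell cycle, read 13027 in TA and 611 in heart (21.3-fold). The cell cycle list leaned towards heart, with 5 of 30 genes at least 2-fold higher there, 0 in TA and 28 of 30 below 0 (median -0.56). Over all genes measured 7.80% were at least 2-fold higher in heart and the median was -0.07, but the share below 0 is not given here. Cenpa, the centromere histone, read 778 in TA and 3205 in heart (4.12-fold), and Rrm2, which makes DNA building blocks, 1499 in TA and 3396 in heart (2.27-fold). Mki67, the general proliferation marker, lay within 2-fold at 2219 in TA and 2669 in heart.

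Genes of satellite cells and of myoblast fusion were still present in TA. Megf10 read 1119 in TA and 141 in heart (7.92-fold higher in TA), Cdh15, M-cadherin, 914 in TA and 123 in heart (7.41-fold), and Mymk, the fusion protein myomaker, 426 in TA and 6.7 in heart (at least 4.21-fold). In all, 6 of 13 of these genes were at least 2-fold higher in TA and 2 in heart, the latter being Jam2 (646 in TA and 1702 in heart) and Rapgef5 (651 in TA and 1991 in heart). The array also held a probe set annotated to Mir133b, noted after its value was seen, which read 302 in TA and 5.6 in heart, at least 2.98-fold higher in TA and at least 8.11-fold in the knockout pools. In RefSeq, miR-133b and miR-206 lie within the noncoding gene Lincmd1 on chromosome 1, and the probe set reads a precursor or host transcript and not the mature form. Rpl3l, a ribosomal protein of striated muscle also noted after its value was seen, was 21.9-fold higher in TA (13255 in TA and 604 in heart).

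Markers of cells other than muscle fibres differed for some types. Those of fibroblasts were balanced, with 1 of 10 at least 2-fold higher in TA and 1 in heart: these were Col1a1 and Tcf21, a factor of heart fibroblasts and epicardium, which read 8.3 in TA and 1004 in heart (at least 9.91-fold). Endothelial markers leaned towards heart, 4 of 10 being at least 2-fold higher there, among them Kdr (1114 in TA and 2781 in heart) and Flt1 (416 in TA and 961 in heart), the receptors for vascular endothelial growth factor. Leukocyte markers lay within 2-fold in all 11 cases. None of the 10 smooth muscle and pericyte markers reached 2-fold, but 2 of these ratios were lower bounds. Schwann cell markers were higher in TA for 4 of 7, led by myelin basic protein, Mbp, at 7539 in TA and 45.4 in heart (at least 74.4-fold). Epicardial markers were higher in heart for 4 of 7, such as Upk3b (4.5 in TA and 522 in heart) and Wt1 (1.7 in TA and 293 in heart). In heart, 6 of 6 ventricle markers and 5 of 10 atrium markers were at least 2-fold higher than in TA. Adipocyte genes split: Adipoq, the fat cell hormone adiponectin, was at least 4.33-fold higher in TA (438 in TA and 64.1 in heart), while Cidea and Ucp1, known from brown fat, were 13.2-fold and at least 3.24-fold higher in heart (168 in TA and 2216 in heart and 3.7 in TA and 328 in heart). Ucp1 read 2.2 in TA and 30.2 in heart in the knockout pools. The part of these cell types in the ratios of genes that they share with muscle was not tested.

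Some of the most tissue-restricted genes belonged to none of these groups. Tceal7, a relative of elongation factor genes, read 26799.9 in TA and 392 in heart, 68.3-fold higher in TA. Strip2, a member of a phosphatase complex, read 161 in TA and 3887 in heart, 24.2-fold higher in heart, and Tesc, the calcium-binding protein tescalcin, 118 in TA and 2301 in heart, 19.6-fold higher. Fuca2, a fucosidase, read 486 in TA and 9299 in heart and was 19.1-fold higher in heart by its brightest probe set. Fam174b read 158 in TA and 3901 in heart, 24.8-fold higher in heart, and 4.49-fold in the knockout pools, where TA read 853. Ankrd1, a stretch-responsive cofactor of heart, read 332 in TA and 17851 in heart, 53.8-fold higher in heart and 24.3-fold in the knockout pools. Myhas, a noncoding transcript of the skeletal myosin cluster noted after its value was seen, read 5451 in TA and 29.6 in heart (at least 53.8-fold higher in TA).

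The knockout pools repeated most of these tissue differences list by list. The cardiac sarcomere list had 12 genes at least 2-fold higher in knockout heart, against 12 in the wild-type pair, with medians of -4.73 and -5.34. For the skeletal triad list the counts in TA were 15 and 15, with medians of 4.82 and 5.28. The floor can limit these sarcomere and triad medians, since 7 of 14 and 10 of 15 wild-type ratios were lower bounds. Skeletal muscle factors gave 13 and 13, and cardiac factors 17 and 15 in heart. Fatty acid genes gave 12 and 15 in heart, with medians of -0.90 and -1.04. Cardiac calcium genes gave 8 and 9 in heart, but their median was nearer to equality in the knockout pools. It was -0.97 over 17 measured genes there and -2.004 over 16 in the wild-type pools. Among lists of at least 10 measured genes the ER chaperone list shifted most, with medians of 1.08 and -0.02. Of the 898 genes higher in wild-type TA, 682 were also at least 2-fold higher in knockout TA, and 887 had a ratio above 0 there. Of the 926 higher in wild-type heart, 693 were also at least 2-fold higher in knockout heart, and 917 had a ratio below 0. These genes were picked by their wild-type ratio, and the share of equal signs over all genes measured is not given here.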

How the data were processed

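Pooled RNA of TA and heart of wild-type and MG56-knockout mice was hybridised to 4 Affymetrix arrays, 1 a group. The authors deposited 1 linear signal intensity for each probe set, and the submitters' processing notes name MAS5. Neither the scaling target nor detection calls were found in the labels used here. With 2% of values trimmed from each end, the array means ran from 496.35 to 496.83, and no further scaling was applied. The number of arrays limits the precision.

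In the platform's annotation 34945 probe sets carried 1 gene symbol and were used, while 932 with several symbols and 9160 without one were left out; 34741 matched a RefSeq gene (GRCm38.p6) and 0 symbols were updated. Promoter and microRNA sequences are RefSeq's in the same build. The floor was the median of all signals (101.3). The probe set with the highest mean over the 4 arrays stood for a gene, and ratios of at least 2-fold were counted. The text names the 12 largest ratios each way with and without the floor, up to 6 members of a list each way, isoform families, Hhatl and members behind small counts, with some left to the counts. The members and lists were chosen with earlier results of these data known. The computation was tested on simulated arrays. Python 3.11.15, NumPy 2.4.6, pandas 2.3.3 and matplotlib 3.10.9 were used. Alternatives were other floors, scalings, probe set rules and a 4-fold threshold.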

Additional observations from a re-analysis of the deposited data

Results flagged for a closer look

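Mettl7a2, a methyltransferase-like gene, pointed in opposite directions in the pairs of pools. In the wild-type pools it read 276 in TA and 136 in heart, a log2 ratio of 1.02. In the knockout pools it read 108 in TA and 327 in heart, a log2 ratio of -1.59. It was noted because the TA pool was the higher one in wild type and the lower one in knockout, each by at least 2-fold, and it was the only such gene among the 898 genes higher in wild-type TA, with 0 among the 926 higher in wild-type heart. With 1 pool a group the difference was not tested.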

How the results depend on the processing

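The counts of genes at least 2-fold higher in TA and in heart, 898 and 926, depended mainly on the floor and on the fold: they were 1457 and 1445 for a floor at the 25th percentile of signals, 495 and 474 for one at the 75th, 2446 and 2529 with no floor, 388 and 363 over the 4491 genes with a single probe set, and 301 and 223 at 4-fold. Quantile normalization, centring, other probe set rules and leaving out ambiguous probe sets gave 812 to 996 in TA and 808 to 942 in heart. Of 2450 values of 263 named genes under these alternatives, 59 crossed the 2-fold line and 0 changed direction past it. With the median over probe sets, Xbp1 had a log2 ratio of -0.06, and without ambiguous probe sets Kcnc4 had 0.26. Of 507 list medians, 33 crossed the line and 0 reversed. The fatty acid median was -0.98 after centring. No paired analysis was possible because each group is 1 array. Floors limit what dim genes can show, pools hide the spread between mice, and no ratio here is an estimate for a population.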

Other observations

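In 4 further genes probe sets of 1 gene pointed in opposite directions by at least 2-fold. For Ppp3cb, a catalytic subunit of calcineurin, 746 in TA and 1726 in heart were read by a probe set 2.31-fold higher in heart, 2103 in TA and 935 in heart by another 2.25-fold higher in TA, and 2 further ones were also higher in TA. For Slc25a4, the muscle carrier of ADP and ATP, the brightest probe set was alike in both tissues (42078 in TA and 42844 in heart), another was 2.36-fold higher in TA (29714 in TA and 12577 in heart) and a dim one reached 2-fold higher in heart (371 in TA and 744 in heart). For Kcnq1ot1, an imprinted noncoding transcript, 4 probe sets were higher in TA, by up to 3.83-fold, and 1 was at least 4.35-fold higher in heart (55.9 in TA and 441 in heart). For Mbp, the gene of myelin basic protein, 6 probe sets were higher in TA and 1 was at least 2.02-fold higher in heart (50.9 in TA and 205 in heart). Of the 6 such genes, 4 also had probe sets at least 2-fold apart from equality in both directions in the knockout pools.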
